A study of Mus musculus with 6 samples.

Results

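Dbp, Tef, Hlf, Nfil3, Gm129, Bhlhe40, Bhlhe41, Usp2 and Rora carry the signal of the circadian clock out to other genes, and their mRNA was compared between sham and tail-suspended mouse hearts. The members were all probes other than controls whose gene name on the array was 1 of these 9 names. They were 9 genes with 11 probes, of 21938 gene names matched to RefSeq and 55681 probes on the array, and all 11 probes passed the filter on dim signals. Gm129 is the name on the array of the gene now called Ciart. Tail-suspension, in which a mouse hangs by the tail with its hindlimbs unloaded, serves as a model of weightlessness. The sham group was 3 male C57BL/6 mice that were not suspended, and the tail-suspension group was 3 male C57BL/6 mice suspended for 28 days from an age of 10 weeks, while the age label of all 6 animals is 11 weeks. Sham mice shared the room and the feeding of the suspended mice, and 1 heart gave 1 array of total RNA. The hour of the day at which each heart was taken is not given in the sources used here.

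The clock is a loop in which CLOCK and BMAL1 (the product of Arntl) bind E-boxes and switch on the Per and Cry genes, whose products then hold CLOCK and BMAL1 back. The same pair of activators drives Dbp, Tef and Hlf, which encode the PAR bZIP activators, and these bind D-box elements that NFIL3 also binds as a repressor. RORA activates Arntl and Nfil3 at ROR elements, where the REV-ERB proteins of Nr1d1 and Nr1d2 repress, so that in a tissue with a running clock Dbp and Nfil3 peak at opposite times of the day.

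Since these genes differ in whether CLOCK and BMAL1 can bind them directly, the promoter windows were searched for the E-box CACGTG, for the D-box TTATGTAA or TTACGTAA, and for the ROR element, each on both strands. The windows come from RefSeq on GRCm38.p6 and run from 250 bases before to 50 bases after a gene's start. They covered 8 of the 9 members in 9 entries, and Bhlhe40 had no entry. An E-box lay in 7.15% of all 32851 promoter windows, a D-box in 1.06% and a ROR element in 0.384%. Gm129 held 3 E-boxes in its window, Tef held 1 in each of its 2 windows, and Bhlhe41 held 1. These 4 stretches are printed because they carry every motif found in the members, with the E-box in capitals, 5′ to 3′ on the strand of the gene. Gm129 (chr3:95882260-95882374, minus strand) is followed by Tef (chr15:81802516-81802581, plus strand), the second start of Tef, which lies inside the gene span (chr15:81811246-81811311, plus strand), and Bhlhe41 (chr6:145865538-145865603, minus strand).
Gm129: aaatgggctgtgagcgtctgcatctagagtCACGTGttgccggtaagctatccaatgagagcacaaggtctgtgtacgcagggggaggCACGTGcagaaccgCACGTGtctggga
Tef: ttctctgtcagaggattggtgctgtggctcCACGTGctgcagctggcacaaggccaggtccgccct
Tef second start: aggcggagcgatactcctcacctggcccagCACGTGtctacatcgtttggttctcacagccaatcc
Bhlhe41: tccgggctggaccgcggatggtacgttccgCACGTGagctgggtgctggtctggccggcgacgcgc
The windows of Dbp, Hlf, Nfil3, Usp2 and Rora held none of these letters, and no member's window held a D-box or a ROR element, which says nothing about elements elsewhere in the genes.

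Of the 9 genes, Rora alone passed the test, and it was higher in the tail-suspended hearts. Usp2 and Gm129 were higher on every tail-suspension array than on any sham array without passing it. Gm129 was well above background on 1 of 3 sham arrays and entered the test only through the tail-suspension arrays. The activators Dbp, Tef and Hlf and the repressors Nfil3, Bhlhe40 and Bhlhe41 did not pass the test in either direction. Over the whole array, 21.6% of tested genes passed it, and the groups did not overlap at 43.9% of tested probes. Dbp and Nfil3, which had the widest ranges among the members measured on every array, ranged over 7.45-fold and 3.44-fold within the sham hearts and over 1.49-fold and 1.01-fold within the tail-suspended hearts. In the text that follows, a level is the log2 intensity of a probe relative to the 75th percentile of its array, a difference is tail-suspension minus sham on that log2 scale, and values of an array are listed as replicates 1, 2 and 3 of its group. Where a gene had more than 1 tested probe, the brighter one stood for it, levels of different probes are not compared, and the files do not say which exon a probe covers.

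**Figure D1:**
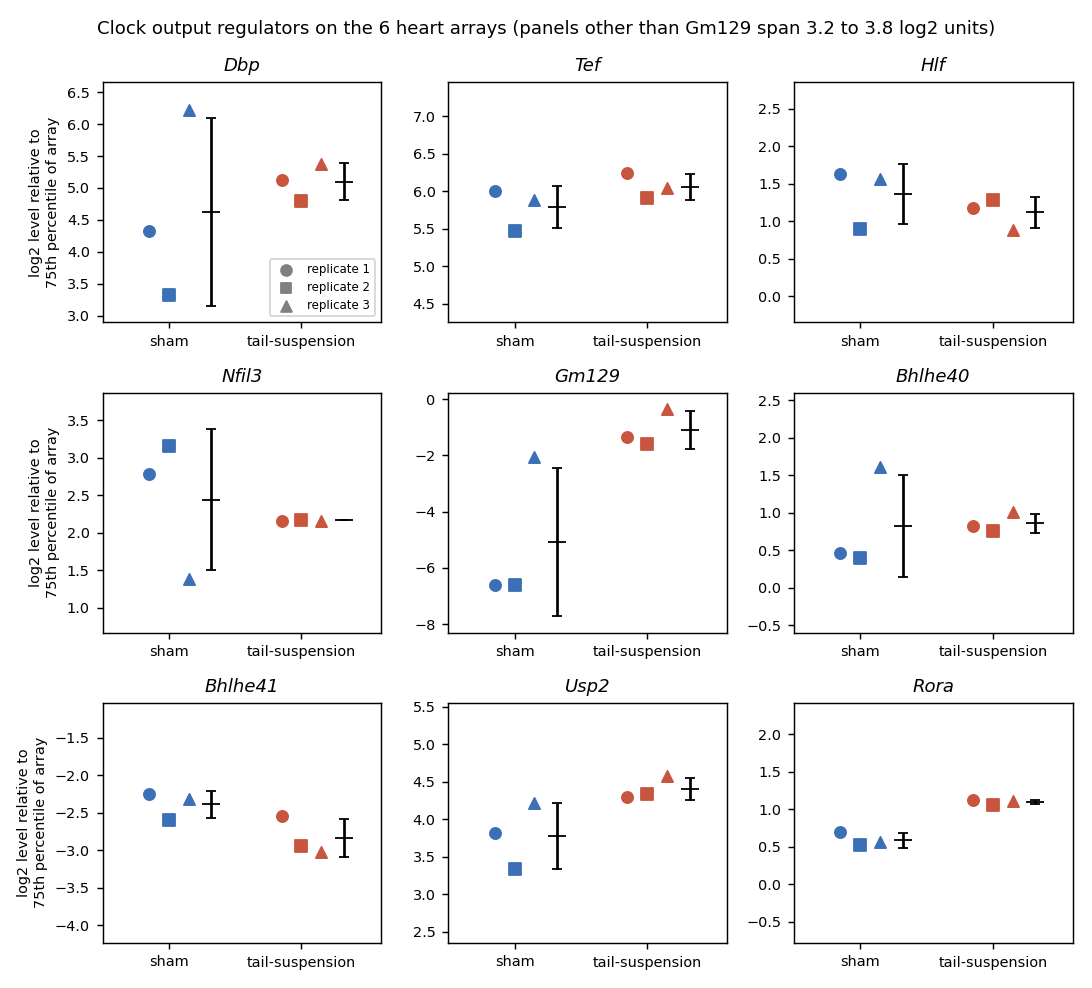
Levels (log2 intensity relative to the 75th percentile of the array) of the 9 members on the 3 sham arrays (blue) and 3 tail-suspension arrays (red), with the marker giving the replicate and the black bar the group mean ± SD. The sham points of Dbp, Nfil3 and Bhlhe40 lie on both sides of the tail-suspension points, while the groups do not overlap for Gm129, Usp2 and Rora; 2 sham points of Gm129, near -6.6, were not well above background.

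Dbp encodes the albumin D-site binding protein, a PAR bZIP factor known for a daily rhythm of high amplitude. Its brighter probe (chr7:52965461-52965520, mm9) gave intensities of 6364, 3181 and 22421 in the sham hearts and of 11781, 10408 and 15439 in the tail-suspended hearts. The corresponding levels were 4.32, 3.33 and 6.22 against 5.12, 4.79 and 5.37. Sham replicate 3 was the highest of all 6 hearts and sham replicate 2 the lowest, and all 3 tail-suspended hearts lay between sham replicates 1 and 3. The sham mean was 4.62 ± 1.47 (SD, n = 3), and the mean after tail-suspension was 5.10 ± 0.29 (SD, n = 3). The difference of 0.47 (SE 0.67, 95% interval -1.13 to 2.08) did not pass the test (limma, Benjamini-Hochberg over all 28002 tested probes, adjusted p = 0.639). It was 1.27 without sham replicate 3 (limma, adjusted p = 0.0577) and -0.17 without sham replicate 2 (limma, adjusted p = 0.857), so its size and its sign turned on single sham hearts.

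The other probe of Dbp (chr7:52965322-52965381, mm9), measured the same 6 RNA samples a second time. Its levels were 4.17, 3.05 and 6.26 in sham and 5.18, 4.97 and 5.43 in tail-suspended hearts, which is the same order of arrays as the brighter probe gave. Its difference was 0.70 (SE 0.74, limma, adjusted p = 0.521). Without sham replicate 3 it was 1.58 (limma, adjusted p = 0.0419) and without sham replicate 2 it was -0.02.

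Tef encodes thyrotroph embryonic factor, a PAR bZIP activator with a flatter daily rhythm. Its levels were 6.01, 5.47 and 5.89 in sham and 6.24, 5.91 and 6.04 in tail-suspended hearts. The groups overlapped, since sham replicate 1 lay above tail-suspension replicate 2. The difference was 0.27 (SE 0.16, 95% interval -0.12 to 0.66, limma, adjusted p = 0.27).

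Hlf encodes hepatic leukemia factor, which completes the PAR bZIP family. Its levels were 1.63, 0.90 and 1.57 in sham and 1.18, 1.29 and 0.88 in tail-suspended hearts. Sham replicates 1 and 3 were the highest of the 6, and sham replicate 2 was next to the lowest. The difference was -0.25 (SE 0.22, 95% interval -0.77 to 0.27, limma, adjusted p = 0.439). The 3 PAR bZIP genes were thus not called, and their intervals leave room for changes of either sign.

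Nfil3 encodes the repressor that competes with the PAR bZIP activators for D-boxes. Its probe (chr13:53062578-53062637, mm9) gave intensities of 2207, 2832 and 780 in sham and of 1511, 1688 and 1672 in tail-suspended hearts. In levels these were 2.79, 3.16 and 1.38 against 2.16, 2.17 and 2.16. The 3 tail-suspended hearts were nearly equal and lay inside the sham range, with sham replicate 3 lowest of all 6 hearts and sham replicate 2 highest. The difference was -0.28 (SE 0.43, 95% interval -1.29 to 0.74, limma, adjusted p = 0.666). Without sham replicate 3 it was -0.81 and passed the test (limma, adjusted p = 0.0239), and without sham replicate 2 it was 0.08 (limma, adjusted p = 0.909).

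Bhlhe40 encodes DEC1, a repressor that binds the E-boxes on which CLOCK and BMAL1 act. Its levels were 0.47, 0.40 and 1.61 in sham and 0.82, 0.76 and 1.01 in tail-suspended hearts. All tail-suspended hearts lay between sham replicates 1 and 3. The difference was 0.04 (SE 0.32, 95% interval -0.72 to 0.80, limma, adjusted p = 0.942). Its sign was negative without sham replicate 1, without sham replicate 2 and without tail-suspension replicate 3, and the difference was 0.43 without sham replicate 3 (limma, adjusted p = 0.0589).

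Bhlhe41 encodes the paralog DEC2 and was the member with the lowest fitted difference. Its brighter probe gave levels of -2.25, -2.60 and -2.32 in sham and of -2.55, -2.95 and -3.02 in tail-suspended hearts, where tail-suspension replicate 1 lay above sham replicate 2. The difference was -0.45 (SE 0.16, 95% interval -0.83 to -0.07, limma, adjusted p = 0.0881). The other probe gave levels of -3.17, -2.70 and -2.18 in sham and of -3.20, -3.24 and -3.60 in tail-suspended hearts, with no overlap. Its difference was -0.66 (SE 0.25, limma, adjusted p = 0.106). Averaging both probes gave -0.56 (limma, adjusted p = 0.0494). The brighter probe shrank to -0.16 with the slide row as a block and, by the same comparison of arrays, within row 1 of the slide. Both probes were negative under every alternative tried.

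Gm129 encodes CIART, also called CHRONO, a repressor of CLOCK and BMAL1. Its probe (chr3:95682433-95682492, mm9) was well above background on 1 of 3 sham arrays and on 3 of 3 tail-suspension arrays. The intensities were 3.28, 3.29 and 72.6 in sham and 134, 124 and 291 in tail-suspended hearts. Sham replicates 1 and 2 gave only a background signal, sham replicate 3 gave a measured one, and every tail-suspended heart was brighter than all sham hearts. The levels were -6.60, -6.59 and -2.05 against -1.34, -1.60 and -0.36. The difference was 3.98 (SE 1.21, 95% interval 1.09 to 6.87) and did not pass the test (limma, adjusted p = 0.0613). Its size rests on the background values of the dim sham arrays, and the probe entered the test only through the group in which it was bright, so this fit is given as a description. With each of those arrays raised to its lowest level among probes above background, a setting chosen after seeing the data, the difference was 2.53, or 5.76-fold. Normexp background correction gave 1.28. Without sham replicate 3 only background values remained in the sham group, and no difference is read from them.

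Usp2 encodes a deubiquitinase with a daily rhythm in many tissues, an enzyme rather than a transcription factor. Its probe (chr9:43903649-43903708, mm9) gave intensities of 4468, 3187 and 5545 in sham and of 6651, 7554 and 8859 in tail-suspended hearts. The levels were 3.81, 3.33 and 4.21 against 4.30, 4.33 and 4.57, and the lowest tail-suspended heart was just above sham replicate 3. The difference was 0.62, or 1.54-fold (SE 0.22, 95% interval 0.09 to 1.14, limma, adjusted p = 0.0905). It passed the test at 0.68 with normexp background correction (limma, adjusted p = 0.0217) and at 0.83 without sham replicate 3 (limma, adjusted p = 0.0394).

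Rora encodes the orphan nuclear receptor that activates Arntl. Its probe (chr9:69226774-69226833, mm9) gave intensities of 517, 454 and 442 in sham and of 734, 781 and 808 in tail-suspended hearts. The levels were 0.70, 0.52 and 0.56 against 1.12, 1.06 and 1.11, so the groups lay apart, with an SD of 0.10 over 3 sham and of 0.03 over 3 tail-suspended hearts. Rora rose by 0.51, or 1.42-fold (SE 0.09, 95% interval 0.30 to 0.72, limma, adjusted p = 0.0139). Its difference stayed between 0.46 and 0.56 under every alternative, but the call was lost without sham replicate 2 (limma, adjusted p = 0.061) and without tail-suspension replicate 3 (limma, adjusted p = 0.0527). Row 1 of the slide held the 3 sham arrays with tail-suspension replicate 1, and row 2 the other two. With the row as a block and within row 1 the difference was 0.53, and the call was lost. These fits are not separate checks, since row 2 held no sham array. In both, the difference is that of 1 tail-suspension array from the 3 sham arrays. The exact two-sided permutation test gave p = 0.1, the smallest value that groups of 3 allow, for Usp2 and Rora.

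**Figure D2:**
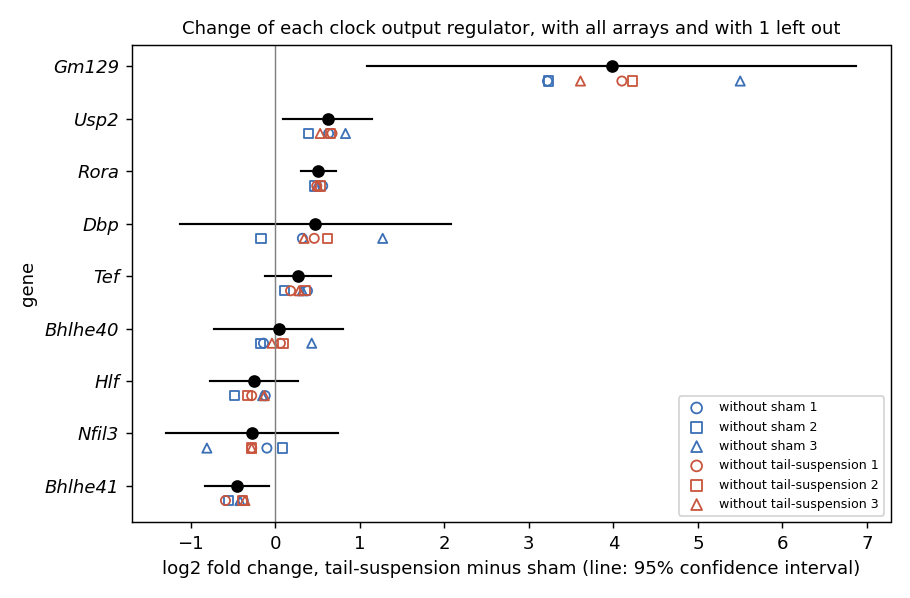
Difference of each member (log2 fold change, tail-suspension minus sham) with its 95% confidence interval (black point and line), and the same difference with 1 array left out (open markers, blue for a sham and red for a tail-suspension array). Leaving out sham replicate 2 or 3 moves Dbp from -0.17 to 1.27 and Nfil3 from 0.08 to -0.81, while Rora stays between 0.47 and 0.56.

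Ordered by difference, the members ran from Gm129 (3.98) through Usp2 (0.62), Rora (0.51), Dbp (0.47), Tef (0.27), Bhlhe40 (0.04), Hlf (-0.25) and Nfil3 (-0.28) to Bhlhe41 (-0.45), and the 95% intervals of all neighbours in this order overlapped. Past the adjusted threshold, 1 of 9 members was higher and 0 were lower by limma, against 20.3% of all tested probes and 21.6% of all 14186 tested genes that passed in either direction. At an unadjusted p below 0.05 in the same fit, 3 members were higher and 1 was lower, against 18.2% of all tested genes higher and 21.7% lower. The groups did not overlap for 3 of the 9 members, against 43.9% of all tested probes. Gm129, which passed the filter only through the tail-suspension arrays, is among the members in both of these counts. The median difference of the members was 0.27, against -0.03 over all tested genes, and their median absolute difference was 0.45, against 0.23. The counts of called and of non-overlapping members were thus no higher than the shares over the whole array.

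The spread among the 3 sham hearts was wider than among the 3 tail-suspended hearts for 8 of the 9 members, all but Bhlhe41. That exception rests on the brighter probe of Bhlhe41, since its other probe had an SD of 0.49 in sham and 0.22 in tail-suspended hearts. Over the array, the sham spread was the wider one at 45.7% of all tested probes. The median SD of the members was 0.44 in sham and 0.17 in tail-suspended hearts, and that of all tested probes was 0.13 and 0.14. Only 0.0714% of tested probes had a larger sham SD than Dbp (1.47), 0.286% than Nfil3 (0.94), 1.19% than Bhlhe40 (0.68) and 4.7% than Usp2 (0.44). The sham SD of Gm129 (2.63), which is counted among the 8, rests on values at background. Rora had the smallest sham SD of the members (0.10), which 66.9% of tested probes exceeded. These spreads are a description of 3 hearts in each group, and the difference between the groups in spread was not tested.

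**Figure D3:**
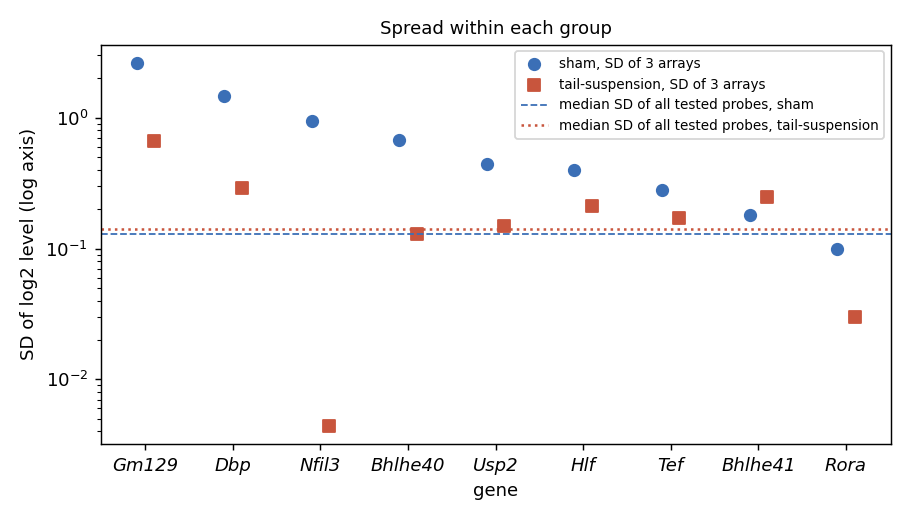
SD of the log2 level over the 3 arrays of each group for the 9 members, on a log axis, with dashed (sham) and dotted (tail-suspension) lines at the median SD of all tested probes. The sham SD lies above the tail-suspension SD for all members except Bhlhe41, which is shown by its brighter probe only. The tail-suspension SD of Nfil3 is 0.0044.

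The sham hearts that were high in one member were not high in all. Sham replicate 2 was the lowest sham heart for 7 of the 9 members, against 30.7% of all tested genes, and the highest for Nfil3. Bhlhe41 is among the 7 by its brighter probe, whereas its other probe was lowest in sham replicate 1 (-3.17). Sham replicate 3 was the highest sham heart for Dbp, Gm129, Bhlhe40 and Usp2 and the lowest for Nfil3. Dbp and Bhlhe40 put the 6 hearts in 1 and the same order, which 6 of the 14186 tested genes including Dbp did (0.0423%). The pair was picked from the orders of all members in these data, so this share does not measure how rare such a pair is. Nfil3 put the sham hearts in the reverse order of Dbp. Over all tested genes, sham replicate 3 was the lowest sham heart for 42.8%, sham replicate 2 for 30.7% and sham replicate 1 for 26.5%.

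Core loop genes were read for the same hearts. Nr1d1, the gene of the repressor REV-ERB alpha, had levels of 0.48, 0.39 and 2.09 in sham and of 0.83, 1.43 and 1.03 in tail-suspended hearts, highest in sham replicate 3 as Dbp was. Arntl, the gene of BMAL1, had levels of 1.29, 2.02 and 0.31 in sham and of 0.00, 1.00 and 0.65 in tail-suspended hearts, and among the sham hearts it was highest in replicate 2 and lowest in replicate 3 as Nfil3 was. The differences were 0.11 for Nr1d1 (SE 0.45, limma, adjusted p = 0.877) and -0.66 for Arntl (SE 0.45, limma, adjusted p = 0.325). Nr1d2, the gene of REV-ERB beta, had levels of 1.80, 1.18 and 2.48 in sham and of 2.29, 2.45 and 2.33 in tail-suspended hearts, with the array order of Nr1d1.

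Per1 and Per2 had another pattern. Per1, an early-responding repressor gene of the loop that many signals induce, had levels of 3.04, 3.27 and 4.63 in sham and of 5.02, 5.64 and 5.59 in tail-suspended hearts, and rose by 1.77 (SE 0.42, limma, adjusted p = 0.032). Per2, its paralog, had levels of -2.16, -2.71 and -1.34 in sham and of 0.21, -0.33 and -0.13 in tail-suspended hearts, and rose by 1.99 (SE 0.34, limma, adjusted p = 0.0133). In both genes sham replicate 3 was the highest sham heart and still lay below every tail-suspended heart, unlike in Dbp and Bhlhe40. The other paralog, Per3, had levels of -2.51, -3.08 and -2.03 in sham and of -2.26, -2.33 and -2.68 in tail-suspended hearts. As in Dbp, sham replicate 2 was the lowest and sham replicate 3 the highest of the 6 hearts, and the difference was 0.11 (SE 0.27, limma, adjusted p = 0.785).

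**Figure D4:**
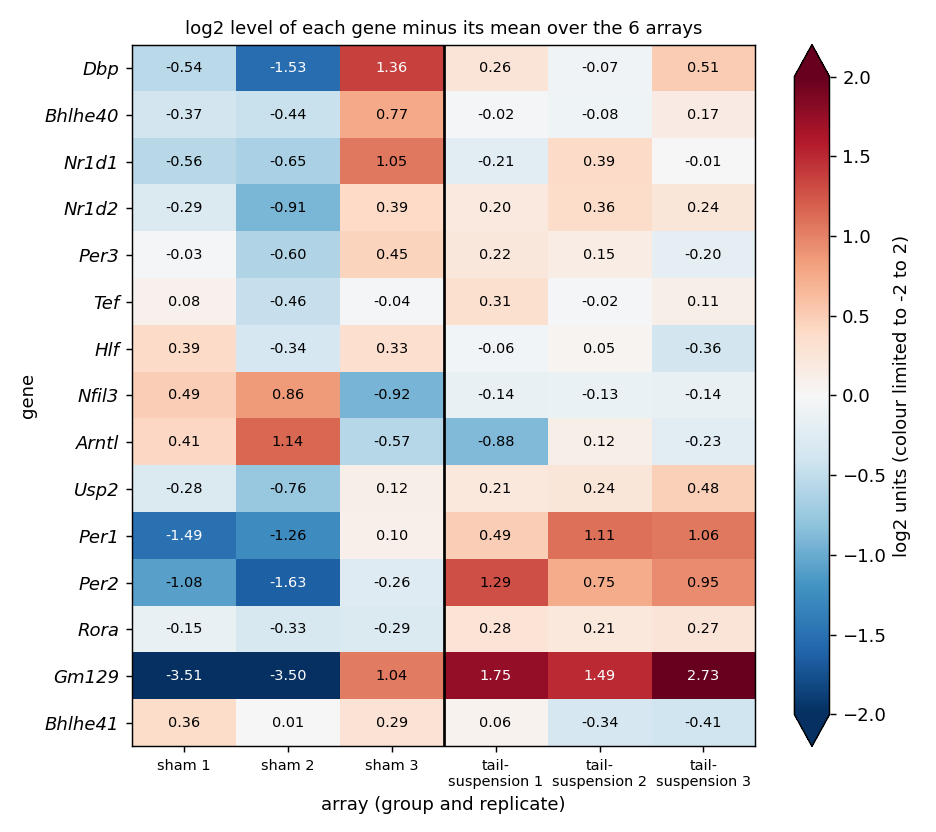
Log2 level of each gene on each array minus its mean over the 6 arrays (rows: members and core loop genes; columns: 3 sham and 3 tail-suspension arrays; colour limited to values from -2 to 2). Sham replicate 3 is the highest array for Dbp (1.36), Bhlhe40 (0.77) and Nr1d1 (1.05) and the lowest for Nfil3 (-0.92), whereas Per1, Per2 and Rora split the 2 groups.

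Of the core clock list, 16 of 19 genes were tested, 5 were higher in tail-suspended hearts and 0 lower, with a median difference of 0.18. Over all 14186 tested genes, 10.3% were higher and 11.3% lower, and the counts of this list and of those below stand beside these shares. Besides Per1 and Per2 the higher ones included Cry2 (0.55) and the kinase gene Csnk1e (0.52), the latter named after its value was seen. Clock had a difference of -0.17 (limma, adjusted p = 0.427), and Npas2 and Cry1 were not tested. The median SD of these 16 genes was 0.31 in sham and 0.15 in tail-suspended hearts.

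Known targets of the PAR bZIP factors and Nfil3 were read as the next layer. Of 13 listed targets, 12 were on the array and 9 were tested, of which 4 were higher and 0 lower, with a median difference of 0.18. Per1 and Per2 of the core list are among these 4. The largest rises were those of Cyp2b10 (2.25, limma, adjusted p = 0.01), a cytochrome P450 gene of drug metabolism, and Per2. Cyp2b10 had levels of -0.97, -0.10 and -1.61 in sham and of 1.48, 1.26 and 1.33 in tail-suspended hearts. Among the sham hearts it was lowest in replicate 3, the heart with the most Dbp, whereas Per1 and Per2 were highest there. The part of Dbp in these values was not tested. The largest fall was -0.92 for Alas1, the first enzyme of heme synthesis (limma, adjusted p = 0.07).

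Other clock-controlled genes numbered 13, all tested, of which 5 were higher and 1 lower, with a median difference of 0.32. Tspan4, a membrane protein gene, rose by 1.13 (limma, adjusted p = 0.0302) and Klf15, a regulator of rhythmic nitrogen and amino acid metabolism, by 0.94 (limma, adjusted p = 0.0283), while the transferrin receptor gene Tfrc fell by 2.37 on the log2 scale (limma, adjusted p = 0.0241). Of 9 related C/EBP and bHLH-Orange factors, relatives of the members by protein family, 8 were tested, 3 were higher and 1 lower, with a median of 0.33. They included Cebpd, which rose by 1.85 (limma, adjusted p = 0.00701), Cebpb, which rose by 1.29 (limma, adjusted p = 0.0181), and the Notch target Heyl, which fell by 1.12 on the log2 scale (limma, adjusted p = 0.00319). Of 13 genes known to be induced by glucocorticoids, 12 were tested and 9 were higher, with a median of 1.17, led by the metallothionein gene Mt2 (4.22) and the receptor cochaperone gene Fkbp5 (3.08). The last list shares Per1 with the core loop and Klf9 and Tsc22d3, both called higher, with the other clock-controlled genes, so the counts of the lists are not separate evidence. The part of glucocorticoids in the values of the members was not tested.

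Among genes well above background on all 6 arrays, the likeness of a pattern was measured as the root mean square difference of centred log2 levels over the 6 hearts, across 13596 genes. The nearest to Dbp were 1700011F14Rik (0.422), Slc16a7 (0.444) and Notch1 (0.453), and to Nfil3 Ccnjl (0.258), 4933400A11Rik (0.293) and Lgr4 (0.300). For Bhlhe40 they were Plk1 (0.137), Ncaph (0.151) and Gphb5 (0.154), for Usp2 4932416H05Rik (0.091), Cdc25b (0.094) and Tbata (0.109), and for Rora Vps11 (0.030), Pias1 (0.034) and Ppp1r11 (0.038). For Tef they were Fscn3 (0.061), Dag1 (0.062) and Naglu (0.065), for Hlf Gpcpd1 (0.065), Morc2b (0.089) and Lats1 (0.107), and for Bhlhe41 Sh3rf1 (0.058), Dysfip1 (0.061) and Sun5 (0.061). The distances to the nearest genes were largest for Dbp and Nfil3, the members with the widest ranges. Gm129 was left out of the search because it was not well above background on all 6 arrays.

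The hearts are mixed tissue, so fewer cells of a type and less RNA per cell cannot be told apart. The counts of markers stand beside 10.3% of all tested genes that were higher and 11.3% that were lower. For each cell type, the relative intensities of the tested markers were summed on the linear scale, where the brightest weigh most, and then taken as log2. The ranges of this value are given for sham against tail-suspended hearts. All 7 cardiomyocyte markers were tested, as the tissue label implies, and 1 was lower (11.84 to 11.97 against 11.72 to 11.77). Of 6 endothelial markers 3 were lower (5.38 to 5.47 against 4.94 to 5.12), of 4 tested lymphocyte markers 2 (1.41 to 1.49 against 1.04 to 1.24) and of 3 tested erythroid markers 1 (8.75 to 9.44 against 6.74 to 8.43), while 2 of 4 tested neutrophil markers were higher (7.18 to 7.43 against 7.70 to 7.88). That last sum is carried by Csf3r, which was not called (0.29), whereas the called markers S100a8 and S100a9 rose by 4.80 and 4.61 and Elane had a difference of -0.30. None of 6 fibroblast, 4 smooth muscle, 4 tested macrophage and 1 tested skeletal muscle markers passed, and none of 4 adipocyte markers was tested. The part of these cells in the rise of Rora was not tested.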

How the data were processed

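Hearts of 3 sham and 3 tail-suspended mice were measured on 1-colour Agilent arrays, all on 1 slide and in 1 scan. The authors deposited the spot intensity of each array after background correction by Agilent Feature Extraction 10.7.1.1, per the labels, and a table of log2 values whose columns correlated at 0.99909 to 0.99928 with the log2 intensity and had medians of 4.331 to 4.332. The normalization of that table is not given in the sources used here, and it served as an alternative.

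The processed intensity was divided by the 75th percentile of its array (300.01 to 375.04) and taken as log2 in R 4.3.3, without control spots and outlier spots, and spots of a probe were averaged. Between 50.92% and 53.43% of probes were well above background, and 0 spots were saturated. Probes well above background (at least 50% of spots) on every array of at least 1 group, 28002 in all, were tested with limma 3.58.1 (lmFit, eBayes, no covariates), Benjamini-Hochberg adjusted, at 0.05. Steps were tested on simulated data. Precision is limited by the number of arrays. Motifs were searched in RefSeq promoters.

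The members, gene lists and tests were chosen with earlier results of these data known. Named are the members, main genes of the core loop, at most 2 rises and 2 falls of each other list, and 3 nearest patterns of each member. The values of 1 gene of the core clock list are not reported here. Alternatives were normexp correction (offset 50), quantile normalization, another percentile, the authors' values, other filters, kept outlier spots, an intensity trend, the methods' t-test, replicate and slide row blocks, other probe rules and each array left out.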

Additional observations from a re-analysis of the deposited data

How the results depend on the processing

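Tef and Hlf kept their sign and their side of the threshold under all 19 alternatives, with Tef between 0.11 and 0.45 and Hlf between -0.48 and -0.12. Of the other members, Dbp was -0.17 without sham replicate 2 (its other probe -0.02, and 1.58 without sham replicate 3), Nfil3 was 0.08 without sham replicate 2, and Bhlhe40 was -0.14 without sham replicate 1, -0.18 without sham replicate 2, -0.04 without tail-suspension replicate 3 and -0.0044 both with the slide row as a block and within slide row 1. With each array left out, differences ran from -0.17 to 1.27 for Dbp, -0.81 to 0.08 for Nfil3, 3.22 to 5.50 for Gm129, -0.18 to 0.43 for Bhlhe40, 0.39 to 0.83 for Usp2 and 0.47 to 0.56 for Rora. Rora missed the threshold at 0.51 without the filter (limma, adjusted p = 0.0543) and at 0.53 with the row as a block and within row 1. Usp2 passed at 0.68 with normexp correction and Bhlhe41 at -0.56 over both probes. The fit of Gm129 crossed the threshold at 1.28 with normexp correction and at 5.50 without sham replicate 3, from which nothing is read, since its probe was kept through the tail-suspension arrays alone. With Gm129 counted, members called higher were 3 with normexp correction, 0 without the filter, with the row as a block and within row 1, and 0 to 3 with each array left out. They were 0 without sham replicate 2 or tail-suspension replicate 3 and 3 without sham replicate 3. Members called lower were 1 over the mean of probes and 0 to 1 with each array left out.

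Over the array, 2982 probes were higher and 2690 lower. The counts were 1041 and 806 without the filter, 1456 and 1204 by the methods' t-test with Benjamini-Hochberg adjustment, 4764 and 4721 by the same test unadjusted, 326 and 178 with the row as a block and 550 and 404 within row 1, where 1 tail-suspension array is assumed to vary like the others. With each array left out they ran from 1011 to 2885 and from 757 to 2689, lowest without sham replicate 2. The cause was not tested.

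When replicate numbers entered the fit as a replicate block, 1723 probes rose and 1431 fell, and 2 members were called higher, Rora and Gm129 (3.98). Nothing is read from the call of Gm129. Its size rests on background values, and its probe was kept through the tail-suspension arrays alone. Over all tested probes, the deviations of same-numbered arrays from their group means correlated at -0.02, -0.0176 and 0.0495. A correlation over so many probes cannot show whether a few genes, such as the members, share a factor between same-numbered arrays. The labels give no basis for the pairing other than the number.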
